A study of Mus musculus with 4 samples.

Results

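The 54 mouse microRNAs (miRNAs) described here carry names with a 4-digit number, from miR-1000 to miR-9999. Names are given in order of discovery, so these are among the later entries of the mouse catalogue. The members were chosen by their read counts: a row entered if it had at least 10 reads in at least 1 of 4 libraries, and rows of miR-3074, miR-3470, miR-3473 and miR-5107 were left out. Of the 847 rows of the table, 317 had a 4-digit name. Of these, 13 had one of the excluded numbers, 250 stayed below 10 reads in every library and 54 were kept. The 54 rows came from 50 hairpins, since 4 hairpins entered with both arms. Another 318 rows of the table reached 10 reads in some library and are called the other rows below.

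Each library held small RNA of sorted macrophages, taken from bone marrow (BM) or spleen of 6 to 8 week old C57BL/6J mice. The normal mice carried no leukaemia, whereas the AML mice had been transplanted 18 days earlier with GFP+ MLL-AF9 acute myeloid leukaemia (AML) cells without irradiation, in a model with a stated survival of 35 to 40 days. MLL-AF9 is a fusion of a histone methyltransferase gene with AF9 that drives leukaemia, and the question was how miRNA levels in leukaemia-associated macrophages compare with the homeostatic state. The study holds 4 libraries, normal BM, AML BM, normal spleen and AML spleen, 1 of each, so no difference has a replicate check and every statement compares libraries. The sources used here do not give the sort markers, how many mice entered a library, or whether both tissues were taken from the same animals.

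A miRNA is a short RNA cut from a hairpin, and its bases 2 to 8, the seed, pair with target messenger RNAs. Most hairpins are released in the nucleus by the Microprocessor (the nuclease Drosha with its partner Dgcr8) and then cut by Dicer into a 5p arm and a 3p arm, of which usually 1 is kept. Some hairpins arise in other ways. A mirtron is a short intron that folds into a hairpin after splicing and bypasses Drosha, and some small nucleolar RNAs (snoRNAs) and small Cajal body RNAs (scaRNAs), which guide the modification of other RNAs, are also cut into miRNA-sized pieces.

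RefSeq held a mature sequence for 49 of the 54 members, and those on which the results turn are shown first. They are written 5′ to 3′, with the seed in capitals. The first 3 held most of the reads of the members.
miR-1198-5p: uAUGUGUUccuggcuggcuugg
miR-1964-3p: cCGACUUCugggcuccggcuuu
miR-1981-5p: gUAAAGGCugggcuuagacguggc

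The next 4 are the arms of the hairpins of miR-1306 and miR-1934, whose arm balance differed between libraries.
miR-1306-5p: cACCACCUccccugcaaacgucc
miR-1306-3p: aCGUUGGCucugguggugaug
miR-1934-5p: uCUGGUCCccugcuucguccucu
miR-1934-3p: aGGAUGACgguggggcugguga

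The pair of miR-1843 5p arms shows how 2 nearly identical molecules come to have different seeds. They share the run AUGGAGGUCUCUGUCUGACU of 20 bases, but miR-1843a-5p starts 1 base earlier. How the authors divided reads between such rows was not given in the sources used here, so their separate counts are uncertain.
miR-1843a-5p: uAUGGAGGucucugucugacu
miR-1843b-5p: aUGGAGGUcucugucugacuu

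The last 6 are among the members called in the comparisons below, and miR-6538 and miR-5126 carry the base composition described further on.
miR-5132-5p: gCGUGGGGugguggacucagg
miR-6538: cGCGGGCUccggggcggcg
miR-5126: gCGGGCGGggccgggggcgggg
miR-8112: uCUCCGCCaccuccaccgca
miR-5121: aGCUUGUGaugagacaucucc
miR-5128: cAAUUGGGgcuggcgagauggcu

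The libraries held 206652 reads in normal BM, 271209 in AML BM, 435492 in normal spleen and 180227 in AML spleen. Levels are counts per 1000000 reads (CPM) of a library scaled by the trimmed mean of M values (TMM), so that 1 read was worth between 2.55 and 5.18 CPM. miRNAs known from other cell types were present in all libraries, and every listed marker was detected in each. The summed level of 4 muscle miRNAs ranged from 2316 CPM in normal spleen to 35819 CPM in normal BM. That of 6 stromal and endothelial miRNAs ranged from 3617 CPM in normal spleen to 31489 CPM in normal BM, and that of 8 liver and epithelial miRNAs from 4137 to 32236 CPM in the same libraries. The 4 lymphocyte miRNAs ran the other way, from 15725 CPM in normal BM to 104037 CPM in normal spleen. The 4 myeloid miRNAs that stand for the labelled macrophages were also lowest in normal BM, at 723 CPM, and highest in normal spleen, at 7179 CPM. The 4 erythroid miRNAs lay between 7664 and 9784 CPM. For every list but the erythroid one, both AML libraries lay between the normal libraries. The sums differed between the libraries compared below, and their part in the results was not tested. In such sorted samples, fewer cells of a type and less RNA per cell cannot be told apart.

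The members held a small share of each library. They had 3444 reads in normal BM, 7076 in AML BM, 10311 in normal spleen and 4070 in AML spleen. This was 1.67% of the reads of normal BM (95% exact binomial interval 1.61% to 1.72%), 2.37% in normal spleen (2.32% to 2.41%), 2.61% in AML BM (2.55% to 2.67%) and 2.26% in AML spleen (2.19% to 2.33%). Normal BM thus had the lowest share and AML BM the highest, but normal spleen was highest (5.33% against 5.16% in AML BM) when the 10 most abundant rows were left out of the total. All such intervals cover counting error only.

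Most of these reads belonged to 3 members. miR-1198-5p had 1139 reads in normal BM, 2623 in AML BM, 4079 in normal spleen and 1619 in AML spleen. miR-1964-3p had 723, 1868, 2696 and 700 reads in the same order, and miR-1981-5p had 547, 1005, 908 and 285. Together they made up 69.9% of the members' reads in normal BM, 77.7% in AML BM, 74.5% in normal spleen and 64.0% in AML spleen. With a mean level of 8410 CPM, miR-1198-5p ranked 28th among all rows of the table, miR-1964-3p ranked 39th and miR-1981-5p 57th. Without these 3, the share of reads was 0.501% (0.471% to 0.532%) in normal BM, 0.603% (0.581% to 0.627%) in normal spleen, 0.583% (0.554% to 0.612%) in AML BM and 0.813% (0.772% to 0.856%) in AML spleen. AML spleen was then the highest library, so the order of the libraries depended on the 3 abundant members.

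The remaining members lay far lower. miR-8112 followed at 241 CPM in normal BM, 785 in AML BM, 867 in normal spleen and 1519 in AML spleen, and ranked 92nd among all rows. miR-8114 lay between 376 and 757 CPM, and miR-3535 between 265 and 632 CPM. The median member had 48.2 CPM in normal BM, 62.4 in AML BM, 52.3 in normal spleen and 51.8 in AML spleen. The other rows had medians of 154, 155, 121 and 143 CPM. Only 15 members reached 100 reads in any library, and 26 stayed below 30 reads everywhere.

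**Figure D1:**
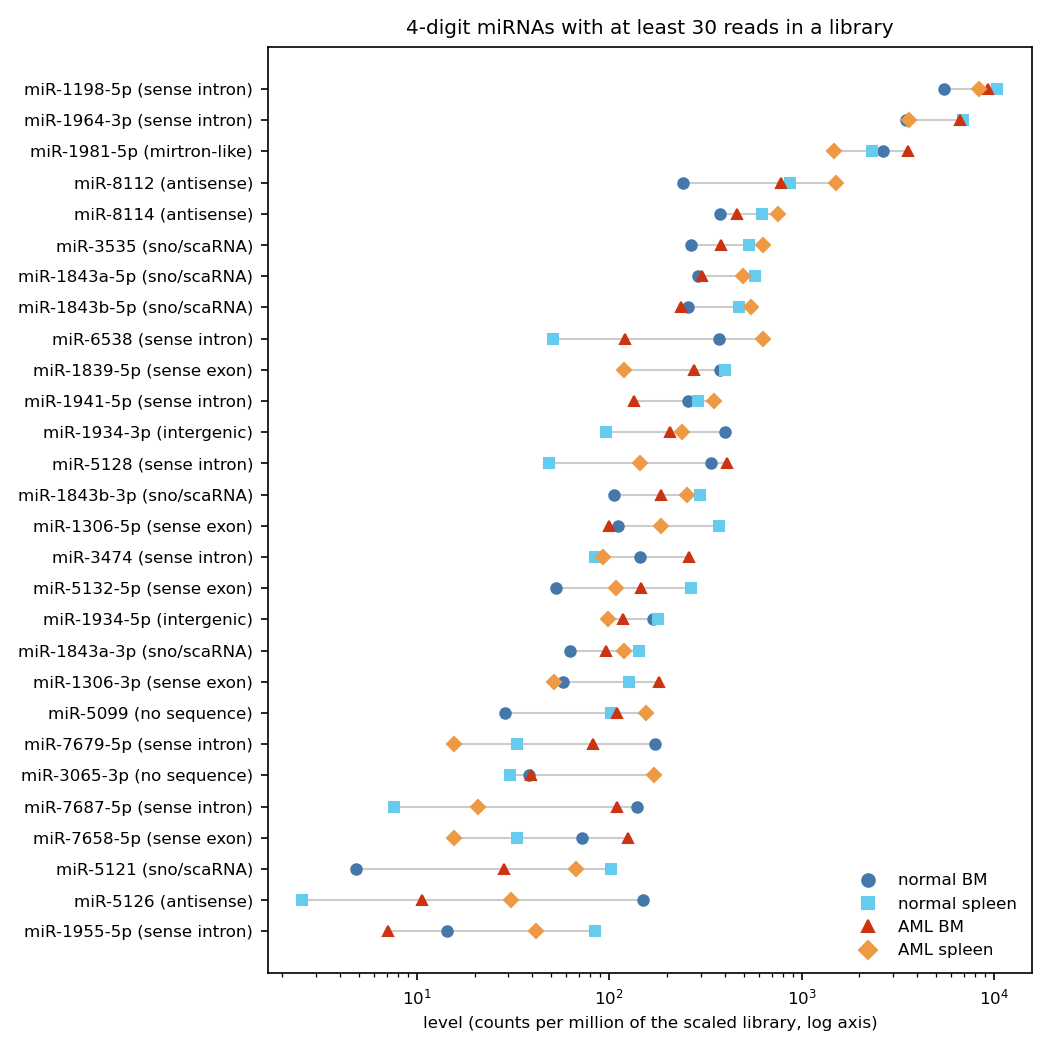
Levels of the 28 members with at least 30 reads in some library, in CPM of the scaled library on a log axis, with 1 point per library and the genome context in brackets. miR-1198-5p, miR-1964-3p and miR-1981-5p stand above the rest in every library, and the widest spans belong to low members such as miR-5126 and miR-5121.

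The deepest library held reads of every member. Of the 54 members, 45 had a read in normal BM, 50 in AML BM, 54 in normal spleen and 51 in AML spleen, and 42 were read in all 4 libraries. Thinned to the depth of the smallest library, the expected numbers were 44.7, 48.4, 51.6 and 51. A member that is listed at 0 may have a level of up to 14.5 CPM in normal BM, 10.7 in AML BM, 7.65 in normal spleen and 15.5 in AML spleen, the level of 3 counts. The deepest library, normal spleen, also had most to do with the choice of members, since 45 of them reached 10 reads there against 28 in normal BM, 36 in AML BM and 28 in AML spleen. Levels were highest in normal spleen for 23 members, in AML spleen for 13, in AML BM for 10 and in normal BM for 8. Among the other rows these numbers were 104, 46, 69 and 99, so normal BM was the top library for 14.8% of members and 31.1% of other rows. The rule of 10 reads bears more on low rows, as most members are, so this contrast is a description and no test.

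At the edge of the rule stood 7 members whose highest count was exactly 10, among them miR-3064-5p with 3, 2, 10 and 2 reads in normal BM, AML BM, normal spleen and AML spleen. miR-5104 had 0, 0, 10 and 3 reads, and miR-5134-5p had 0, 10, 1 and 3. Just outside, with a highest count of 9, were miR-3076-3p (0, 9, 8 and 1 reads), miR-6516-3p (0, 0, 9 and 5) and miR-7669-3p (9, 3, 6 and 2).

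The members came from varied places in the genome. Positions are those of RefSeq on GRCm38.p6, and host genes are from GENCODE M21 on the same build. Sense introns of other genes held 16 members. miR-1198-5p lies at chrX:7807142-7807163 on the plus strand, in an intron of Gripap1, which encodes a protein of endosomal trafficking. miR-1964-3p lies at chr7:29773344-29773365 on the plus strand, in an intron of the zinc finger gene Zfp84. The other intronic members were those of Gm35853 (miR-1941-5p), Tmem184b (miR-1943-5p), Lmln (miR-1947-5p), Phf21a (miR-1955-5p), Alkbh1 (miR-3068-5p), Actr5 (miR-3474), Mief2 (miR-5100), Zc3h12d (miR-5104), Strbp (miR-5128), Rnf144a (miR-6538), Tbc1d22b (miR-7667-5p), Slfn9 (miR-7679-5p), Gse1 (miR-7687-5p) and Osbpl7 (miR-8103). With the abundant pair in it, this class had the highest summed level in each library, from 10604 CPM in normal BM to 18113 CPM in normal spleen.

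Mirtron-like positions, where the hairpin ends at the splice acceptor of its host intron, held 8 members. miR-1981-5p at chr1:184822465-184822488 on the minus strand was the only one whose hairpin spans the whole intron, that of Marc2, a mitochondrial amidoxime reductase gene. The other 7 hairpins left a stretch of intron on the donor side, from 8 bases in Hip1r (miR-7032-3p) to 1519 bases in Rassf4 (miR-7043-3p). Their hosts also included Cpa3 (miR-7007-5p), a mast cell protease gene, and Arrb2 (miR-7115-5p), which encodes a beta-arrestin. The remaining hosts were Scaf1 (miR-7054-5p), Cln3 (miR-7059-5p) and Farsa (miR-7069-5p). The class summed to 2705 CPM in normal BM, 3755 in AML BM, 2502 in normal spleen and 1602 in AML spleen, and nearly all of it was miR-1981-5p. Of its 8 members, 4 were read in normal BM, 7 in AML BM, 8 in normal spleen and 6 in AML spleen.

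Small nucleolar or Cajal body RNAs held 6 members. Both arms of miR-1843a lie in Scarna3b on chromosome 12, within an intron of Dcaf5, and both arms of miR-1843b lie in Scarna3a on chromosome 1, within an intron of Cop1. miR-3535 lies in a snoRNA within an intron of Ncl, the gene of nucleolin, and miR-5121 lies in Snord33 within the ribosomal protein gene Rpl13a. Reads of such rows may be pieces of the host small RNA or products of Dicer, and the counts cannot tell these apart. The summed level of the 6 was 984 CPM in normal BM, 1230 in AML BM, 2117 in normal spleen and 2120 in AML spleen. Both spleen libraries thus stood above both BM libraries.

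Exons read in the same direction held 13 members. The arms of miR-1306, at chr16:18284288-18284310 and chr16:18284248-18284268 on the minus strand, lie in an exon of Dgcr8, which encodes the partner of Drosha. miR-5132-5p, at chrX:74023571-74023591 on the minus strand, lies in an exon of Irak1, a kinase gene of Toll-like and interleukin-1 receptor signalling. Other exonic members lie in the long noncoding RNA 2900076A07Rik (miR-1839-5p), Apba3 (miR-3057-5p), Ddx5 (miR-3064-5p), Rtl1 (miR-3071-5p), Tnrc6b (miR-5113), Scd2 (miR-5114), Kctd12 (miR-5130), Gm15987 (miR-7649-3p) and Plekhn1 (miR-7658-5p). The class summed to 810 CPM in normal BM, 1041 in AML BM, 1512 in normal spleen and 829 in AML spleen.

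Antisense positions held 4 members. miR-8112 at chr6:71271745-71271764 on the plus strand lies opposite an intron of Smyd1, and its sequence also occurs in a transcript of Krcc1. miR-8114 lies opposite an exon of Teddm2, and its sequence also occurs in a transcript of Glul, the glutamine synthetase gene. miR-5126 at chr1:84695890-84695911 on the plus strand lies opposite an exon of Dner, and miR-5620-5p opposite an intron of Clcn4. For miR-8112 and miR-8114 the matches to Krcc1 and Glul are in the sense direction. Their antisense label rests on the genes that span the whole hairpin, so the source of their reads is uncertain. In AML spleen they held 293 and 146 of the 447 reads of the class. The class summed to 825, 1323, 1558 and 2317 CPM in normal BM, AML BM, normal spleen and AML spleen. Both miR-1934 arms were intergenic, on chromosome 11. No sequence was matched for miR-1949, miR-3065-3p, miR-5099, miR-5134-5p and miR-7212-5p.

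**Figure D2:**
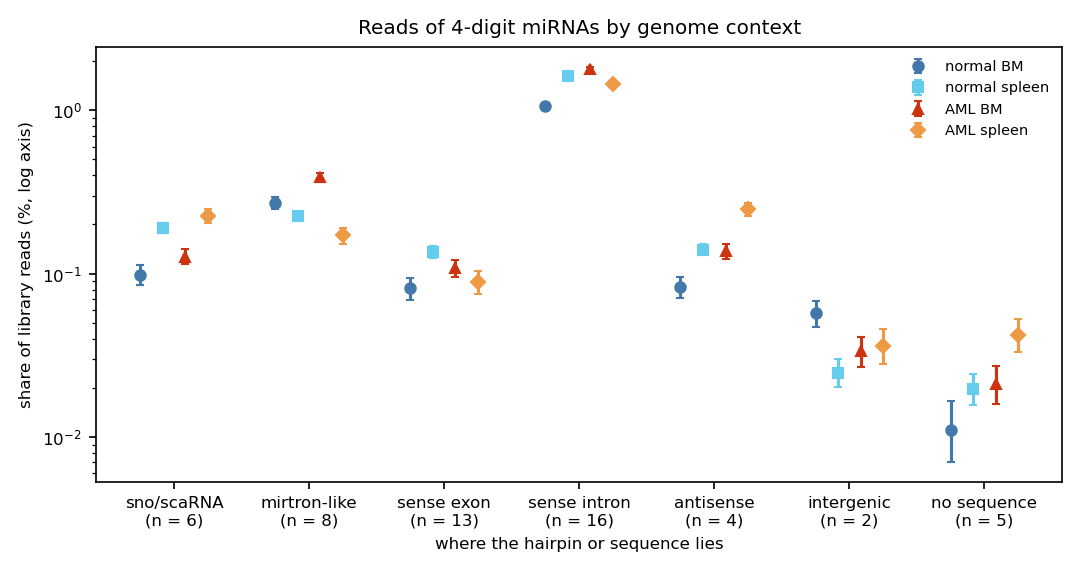
Share of library reads (%, log axis) held by the members in each genome context, with 1 point per library and 95% exact binomial intervals that cover counting error only. The snoRNA and scaRNA class is higher in both spleen libraries than in both BM libraries. The class labelled antisense is highest in AML spleen and is mostly reads of miR-8112 and miR-8114, whose source is uncertain.

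For comparisons, the ratio of scaled levels is given on the log2 scale with a 95% exact conditional interval in brackets. A row was compared when its larger count was at least 30, and it was called higher or lower when the ratio was at least 2-fold and the interval excluded 1. A member that was compared only because it is high in 1 library tends to differ by that choice alone, so the counts of members describe these libraries and are no test. Each library enters 2 of the 4 comparisons, and comparisons that share a library are not independent. The ratios were scaled with TMM over all rows of the table, and other scalings moved every ratio of a comparison by at most 0.25 on the log2 scale.

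In AML BM against normal BM, 23 members could be compared, of which 15 had at least 30 reads in both libraries, 6 only in AML BM and 2 only in normal BM. Of these, 4 were called higher and 3 lower. Among all rows compared, 13.4% were called higher and 12% lower, so the counts of members were near those of the table. The median log2 ratio of the members was 0.30, beside 0.0029 over all rows compared.

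The 4 higher members came from unlike places. miR-8112 had 50 reads in normal BM and 220 in AML BM, a log2 ratio of 1.70 [1.25 to 2.18]. miR-5099 had 6 and 31 reads, a ratio of 1.93 [0.65 to 3.49]. The Dgcr8-hosted miR-1306-3p had 12 and 51 reads, and its ratio was 1.65 [0.73 to 2.70]. The Irak1-hosted miR-5132-5p had 11 and 41 reads, and its ratio was 1.46 [0.48 to 2.57]. Only miR-8112 among them had an interval that stayed above 2-fold.

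The 3 lower members had a GC content of 100% (miR-5126), 94.7% (miR-6538) and 65.0% (miR-7679-5p). miR-5126 had 31 reads in normal BM and 3 in AML BM, a log2 ratio of -3.80 [-6.16 to -2.12]. miR-6538 had 77 and 34 reads, a ratio of -1.61 [-2.24 to -1.01]. miR-7679-5p had 36 and 23 reads, a ratio of -1.08 [-1.90 to -0.29], which fell short of 2-fold when the 10 most abundant rows were left out of the scaling (-0.89).

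The abundant members were measured more precisely and were higher in AML BM by less than 2-fold. The log2 ratio was 0.93 [0.81 to 1.06] for miR-1964-3p, 0.77 [0.67 to 0.87] for miR-1198-5p and 0.44 [0.29 to 0.60] for miR-1981-5p. Without the 10 most abundant rows in the scaling, miR-1964-3p passed 2-fold at 1.13. Of the snoRNA and scaRNA class, 4 members were compared and none was called.

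Between AML and normal spleen, 23 members were compared, of which 13 had at least 30 reads in both libraries, 2 only in AML spleen and 8 only in normal spleen. Of these, 3 were called higher and 3 lower, whereas 25.0% of all rows compared were called higher and 21.3% lower. The share of members called was thus below that of the table in both directions on this scaling. DESeq2 size factors gave 7 lower members, but the share of all rows called lower on that scaling was not computed. The median log2 ratio of the members compared was -0.23, beside -0.25 over all rows compared. For the 13 members with at least 30 reads in both libraries it was 0.22, beside -0.05 for all such rows. The sign of the members' median thus depended on this filter.

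The widest difference was that of miR-6538, which had 20 reads in normal spleen and 121 in the much shallower AML spleen library. Its log2 ratio was 3.62 [2.93 to 4.38]. miR-3065-3p had 12 and 33 reads, a ratio of 2.48 [1.49 to 3.57]. The intergenic miR-1934-3p had 38 and 46 reads, a ratio of 1.30 [0.65 to 1.96]. The 3 belong to different hairpins, of which miR-6538 is intronic and no position was matched for miR-3065-3p. Members were not matched to ribosomal RNA, transfer RNA or repeats, so other sources of the reads of miR-6538 were not examined.

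The 3 lower members were all exonic, and each reached 30 reads only in normal spleen. miR-1839-5p had 157 reads in normal spleen and 23 in AML spleen, and its log2 ratio was -1.75 [-2.45 to -1.11]. miR-1306-3p had 50 and 10 reads, a ratio of -1.30 [-2.44 to -0.30]. miR-5132-5p had 104 and 21 reads, a ratio of -1.29 [-2.04 to -0.60]. The fourth exonic member compared, miR-1306-5p, had 146 and 36 reads and a ratio of -0.997 [-1.57 to -0.46], just short of a call. Of the abundant members, miR-1964-3p had a log2 ratio of -0.92, miR-1981-5p of -0.65 and miR-1198-5p of -0.31.

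**Figure D3:**
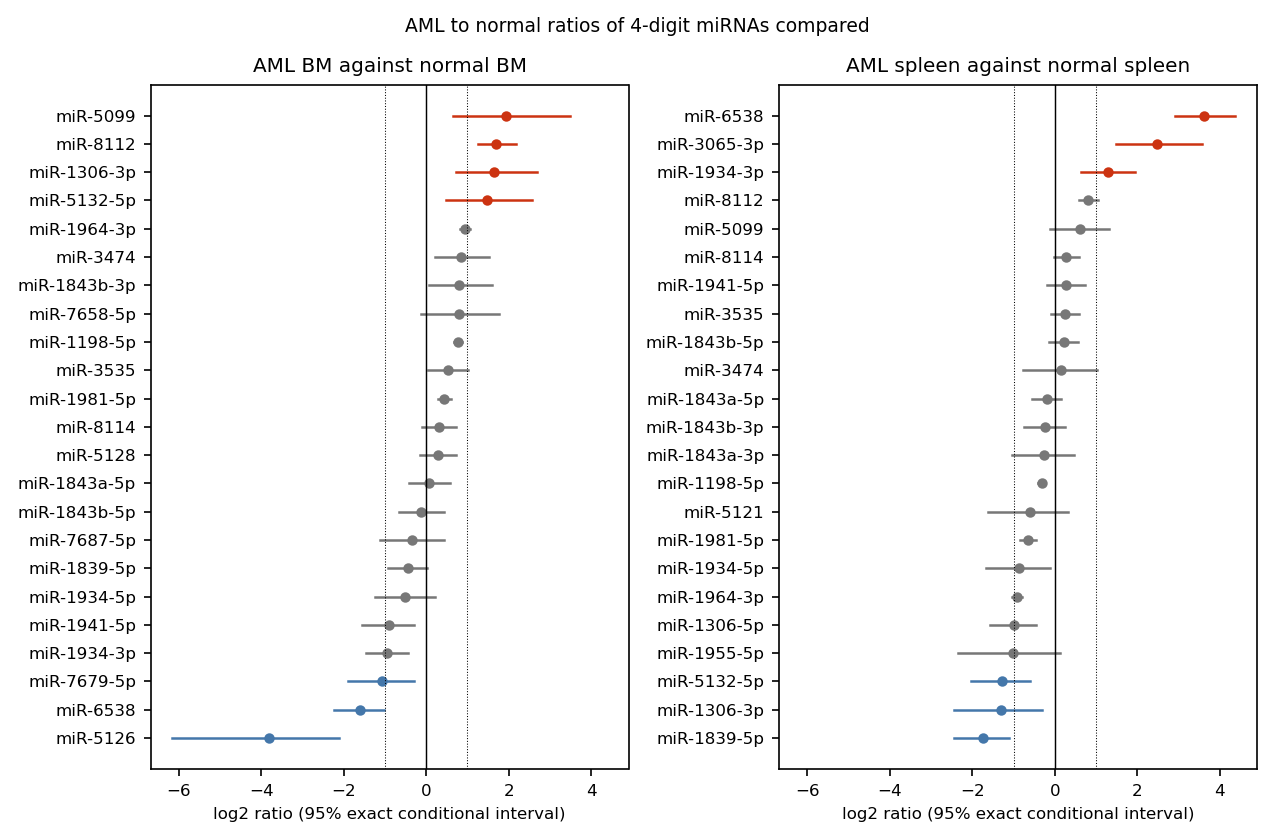
Log2 ratios of AML to normal for the 23 members compared in BM (left) and the 23 compared in spleen (right), with 95% exact conditional intervals for counting error. Red points were called higher and blue points lower, and dotted lines mark 2-fold. miR-6538 is near the bottom on the left (-1.61) and at the top on the right (3.62).

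The AML ratios of the tissues can be set side by side for 18 members. For 11 of these (61.1%) the sign was opposite in BM and spleen, against 136 of 186 rows of the whole table (73.1%). There were 7 members above normal in BM and below it in spleen, 4 with the reverse, 5 above in both and 2 below in both. Members of opposite sign numbered 9 on total counts and 10 without the 10 most abundant rows in the scaling. miR-6538, miR-1306-3p and miR-5132-5p were called in both tissues, each in opposite directions. All of these calls except that of miR-6538 in BM had at least 30 reads only in the library where the member was higher. Such opposite calls were not counted over all rows, so they cannot be called particular to the members. For miR-6538, the AML spleen ratio exceeded the AML BM ratio by 5.23 on the log2 scale. For miR-1306-3p the spleen minus BM difference was -2.95 and for miR-5132-5p it was -2.75. miR-8112 was higher in AML in both tissues, at 1.70 in BM and 0.81 in spleen. With 1 library per group, a difference between tissues could not be tested.

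Normal spleen against normal BM gave the most calls. Of 25 members compared, 13 had at least 30 reads in both libraries, 8 only in normal spleen and 4 only in normal BM. There were 10 called higher in normal spleen and 5 lower, beside 30.8% higher and 35.5% lower among all rows compared. The median log2 ratio was 0.92, beside 0.19 over all rows compared. With at least 30 reads in both libraries, 2 of 13 members were higher and 1 lower, beside 38 higher and 54 lower of 158 rows of the table. The median of these members was 0.73, beside 0.07 for these rows. Most calls of members thus came through 1 library. The marker sums given above, except the erythroid one, also differed most between these 2 libraries.

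Members from snoRNAs and scaRNAs made up 4 of the 10 higher calls, out of 6 of that class compared. miR-5121 from Snord33 had 1 read in normal BM and 40 in normal spleen, and its log2 ratio was 4.40 [1.84 to 9.74]. miR-1843b-3p had 22 and 117 reads, a ratio of 1.49 [0.83 to 2.22], and miR-1843a-3p had 13 and 56 reads, a ratio of 1.19 [0.30 to 2.18]. miR-3535 had 55 and 208 reads, a ratio of 1.00 [0.57 to 1.46], which fell below 2-fold on total counts. The median over the 6 was 1.09. Except for miR-3535, the members called here reached 30 reads only in normal spleen.

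Of the 4 exonic members compared, 3 were also called higher in normal spleen, each with fewer than 30 reads in normal BM. The log2 ratio was 2.32 [1.42 to 3.37] for miR-5132-5p, with 11 and 104 reads, and 1.75 [1.11 to 2.45] for miR-1306-5p, with 23 and 146 reads. It was 1.14 [0.21 to 2.18] for miR-1306-3p, which fell below 2-fold on total counts. The other 3 higher calls were miR-1955-5p at 2.54 [0.87 to 4.89], miR-8112 at 1.85 [1.42 to 2.31] and miR-5099 at 1.82 [0.57 to 3.35]. The counts of miR-1955-5p, 3, 2, 33 and 8 reads, are within 2 of those of miR-138-5p in each library, although no run of at least 8 bases shared by the sequences was found.

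The 5 lower members were miR-5126, miR-6538, miR-5128, miR-7679-5p and miR-1934-3p. miR-5126 had 31 reads in normal BM and 1 in normal spleen, and its log2 ratio was -5.87 [-11.22 to -3.29]. miR-6538 had 77 and 20 reads, a ratio of -2.86 [-3.65 to -2.14]. miR-5128 had 70 and 19 reads, a ratio of -2.80 [-3.61 to -2.05], and miR-7679-5p had 36 and 13, a ratio of -2.39 [-3.43 to -1.44]. miR-1934-3p had 83 and 38 reads, a ratio of -2.05 [-2.64 to -1.48].

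In AML spleen against AML BM, 23 members were compared, of which 13 had at least 30 reads in both libraries, 2 only in AML spleen and 8 only in AML BM. There were 4 called higher in AML spleen and 7 lower, beside 13.7% higher and 21.3% lower among all rows compared. With at least 30 reads in both libraries, 3 of 13 members were higher and 1 lower, beside 19 higher and 16 lower of 160 rows of the table. The 4 higher members were miR-6538 at 2.37 [1.81 to 2.96], miR-3065-3p at 2.12 [1.10 to 3.26], miR-1941-5p at 1.38 [0.79 to 1.99] and miR-1843b-5p at 1.22 [0.77 to 1.69]. For miR-6538 the read counts were 34 in AML BM and 121 in AML spleen. Spleen was thus below BM for miR-6538 in the normal mice and above it in the AML mice.

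The lower members of AML spleen had mostly few reads. miR-7658-5p had 35 reads in AML BM and 3 in AML spleen, and its log2 ratio was -3.00 [-5.35 to -1.34]. miR-7687-5p had 31 and 4, a ratio of -2.41 [-4.38 to -0.91]. miR-5128 had 115 and 28 reads, a ratio of -1.50 [-2.15 to -0.89], below BM as in the normal mice. miR-1981-5p, whose hairpin spans its intron, had 1005 and 285 reads, a ratio of -1.28 [-1.47 to -1.09]. The others were miR-1306-3p at -1.81 [-2.95 to -0.82], miR-3474 at -1.48 [-2.31 to -0.72] and miR-1839-5p at -1.20 [-1.94 to -0.52].

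Numbers of the name gave another way to group the members, since 17 numbers begin with 1, 7 with 3, 13 with 5, 1 with 6, 13 with 7 and 3 with 8. Of the 13 that begin with 7, 0 could be compared in spleen and 3 in BM between AML and normal. A list of numbers that human homologues also use, described without a test, held 8 members, the arms of miR-1306, miR-1843a and miR-1843b with miR-3064-5p and miR-3065-3p. In AML BM against normal BM, 4 of them were compared and 1 was higher (13.4% of all rows). In AML spleen against normal spleen, 7 were compared, with 1 higher (25.0% of all rows) and 1 lower (21.3%). In normal spleen against normal BM, 4 of 6 were higher (30.8% of all rows). These 4 were both arms of miR-1306 with miR-1843a-3p and miR-1843b-3p. Each had at least 30 reads only in normal spleen, and the 2 that had them in both libraries were not called. In AML spleen against AML BM, 2 of 6 were higher (13.7%) and 1 lower (21.3%). Among members of this list with at least 30 reads in both libraries, the only call was 1 higher in AML spleen against AML BM. A list of the imprinted Dlk1-Dio3 region held 1 member, miR-3071-5p, with 6, 1, 1 and 12 reads in normal BM, AML BM, normal spleen and AML spleen, too few to compare.

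Both arms were among the members for the hairpins of miR-1306, miR-1843a, miR-1843b and miR-1934. The share of the 5p arm needs no scaling, since both arms are counted in the same library. For miR-1306, 5p made up 65.7% of the reads of both arms in normal BM (95% exact binomial interval 47.8% to 80.9%), 74.5% in normal spleen (67.8% to 80.4%) and 78.3% in AML spleen (63.6% to 89.1%). In AML BM it was 35.4% (25.0% to 47.0%), with 28 reads of 5p and 51 of 3p. AML BM was the only one of the 4 libraries with more 3p than 5p reads of this hairpin. Its interval did not overlap those of the others, but it ended just below that of normal BM, which rested on 23 reads of 5p and 12 of 3p. How often arm balance sets a library apart among the other hairpins of the table was not counted.

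For miR-1934 the library that stood apart was normal spleen. There 5p made up 64.8% (55.0% to 73.8%), with 70 reads of 5p and 38 of 3p. The share was 29.7% (21.6% to 38.8%) in normal BM, 36.3% (26.4% to 47.0%) in AML BM and 29.2% (18.6% to 41.8%) in AML spleen. A low level of miR-1934-3p in normal spleen, 97 CPM against 400 in normal BM, was thus not shared by the 5p arm. miR-1934-5p lay at 169 CPM in normal BM (35 reads) and 179 CPM in normal spleen (70 reads), a log2 ratio of 0.08 [-0.52 to 0.71].

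For the scaRNA-hosted hairpins the intervals of the libraries overlapped. The 5p share of miR-1843a lay between 75.9% in AML BM and 82.2% in normal BM. That of miR-1843b lay between 55.9% (46.5% to 65.1%) in AML BM and 70.7% (59.0% to 80.6%) in normal BM. The hairpin of miR-1198 was read almost only as 5p, with 0, 0, 2 and 0 reads of the 3p arm in normal BM, AML BM, normal spleen and AML spleen. The same was true of miR-1981, with 0, 1, 2 and 0 reads of 3p.

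**Figure D4:**
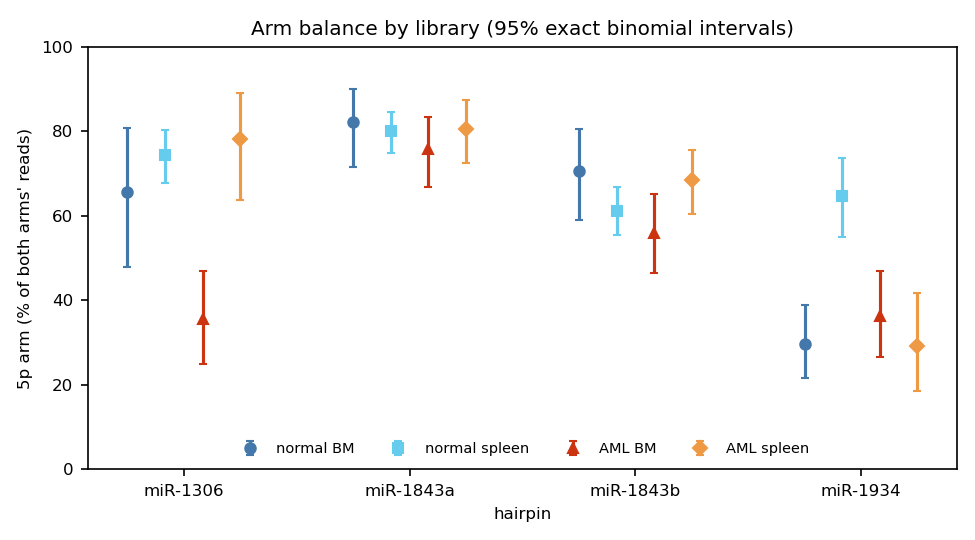
Share of the 5p arm among the reads of both arms (%), by hairpin and library, with 95% exact binomial intervals for counting error. miR-1306 lies at 35.4% in AML BM and miR-1934 at 64.8% in normal spleen, while the intervals of the libraries overlap for miR-1843a and for miR-1843b.

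The sequences of the members differed from those of the other rows in several ways that the rule did not use. The median GC content of 49 members was 59.1% (range 38.5% to 100%), against 47.8% (22.7% to 81.8%) for 260 other rows with a sequence. A GC content of at least 70% was found in 8 members (16.3%) and 5 other rows (1.92%). miR-5126 consists of G and C alone, and miR-6538 has a GC content of 94.7%. The length was alike, with a median of 22 bases in both sets. A first base of U, the base that the Argonaute proteins which carry miRNAs often prefer, was found in 17 members (34.7%) and 115 other rows (44.2%).

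Shared seeds were rare. Among the members, only miR-1943-5p shared its seed, AGGGAGG, with another row, that of miR-149-3p. This was 1 of 49 members (2.04%), against 83 of 260 other rows (31.9%) that shared a seed. A mirtron-like position was found for 8 members (16.3%) and 2 other rows (0.769%), whereas a sense exon held similar shares, 13 members (26.5%) and 62 other rows (23.8%). For miR-3071-5p, 19 bases were the reverse complement of miR-136-3p, which is transcribed from the opposite strand of the imprinted Dlk1-Dio3 region.

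A run of at least 9 bases in common with miR-3470 or miR-3473, which are among the numbers left out, on either strand was found in 4 members (8.16%) and 5 other rows (1.92%). Rows of miR-3473 were themselves among the other rows and were entered as having no run, so these shares are not like for like. The members were miR-7667-5p with 12 bases (GAGCCAUCUCUC, the reverse complement of part of miR-3473a), miR-5104 with 10, miR-7649-3p with 10 and miR-5128 with 9. Reads of such sequences may come from more than 1 place in the genome, which was not examined here.

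Across the members, the ratio varied with GC content in the comparisons with a normal library. Pearson's r between GC content and log2 ratio was -0.46 over 22 members in AML BM against normal BM, 0.57 over 21 in AML spleen against normal spleen and -0.63 over 24 in normal spleen against normal BM. Among the other rows it was 0.19, -0.24 and 0.20, so the sign was opposite each time. In AML spleen against AML BM it was -0.01 over 21 members and -0.02 over 157 other rows. These points share their libraries and depth, so the values are descriptions. Without the 2 members of highest GC content in each comparison, r became 0.23, 0.25, -0.21 and -0.26 in the order given, so the larger values rested on very few members, miR-6538 in each and miR-5126 in those with normal BM.

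**Figure D5:**
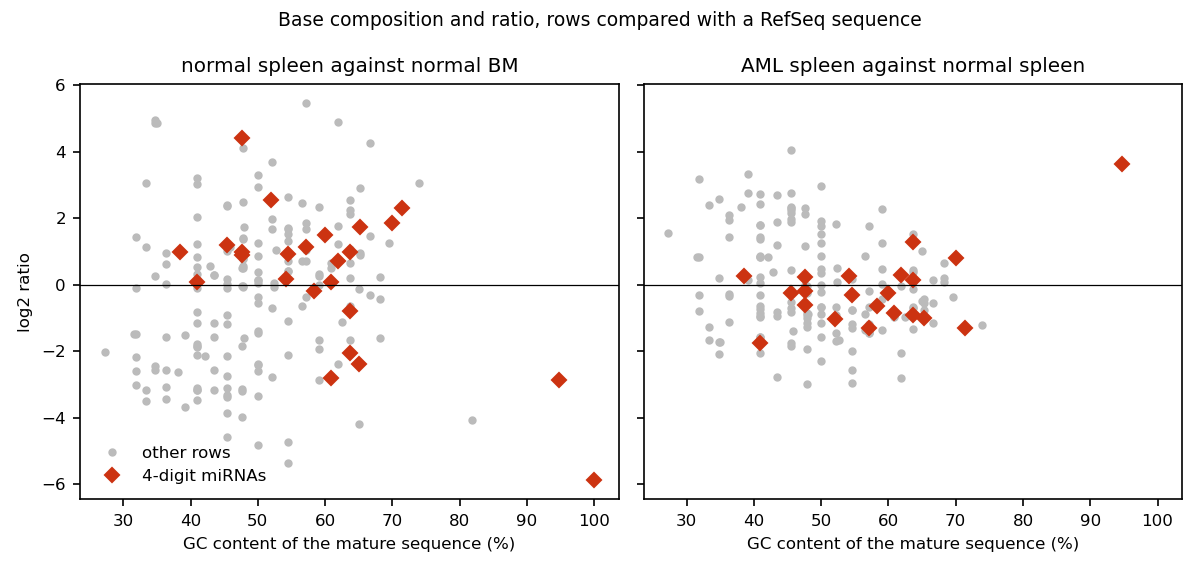
GC content of the mature sequence (%) against log2 ratio for members (red) and other rows (grey), in normal spleen against normal BM (left) and AML spleen against normal spleen (right). miR-6538, at 94.7% GC, lies at -2.86 on the left and 3.62 on the right, and miR-5126, at 100% GC, lies at -5.87 on the left.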

How the data were processed

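Macrophage small RNA was sequenced on an Illumina HiSeq instrument from total RNA extracted with an RNeasy Mini kit, per the labels' protocols. The deposited table gives read counts per miRNA for 4 libraries, and its TPM columns, named so per the file headers, equalled count divided by library total times 1000000. Only the counts were analysed, and 0 columns belonged to other series. The aligner, genome build and miRNA annotation behind the counts were not given in the sources used here.

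Members and lists were chosen with earlier results of these data known. Groups come from sample titles. Libraries, of 180227 to 435492 reads, were scaled with TMM in edgeR 4.0.16 (R 4.3.3). With 1 library per group no test over replicates was made. Ratios have 95% exact conditional (Clopper-Pearson) intervals, computed with Python 3.11.15, scipy 1.17.1 and pandas 2.3.3. A call needed at least 2-fold, an interval excluding 1 and 30 counts in the larger library, and a count of 0 entered as 3 counts. The counts are reads without molecular identifiers, and intervals cover counting error only. The scripts were tested on simulated data. The miRNAs named with values are the 12 most abundant members, up to 8 called per direction and comparison, members called in both tissues, hairpins with both arms, and up to 3 at each side of the threshold. Members named outside this rule (in the accounts of position and sequence) were chosen after their values were seen. Sequences and positions are from RefSeq on GRCm38.p6 and host genes from GENCODE M21. miR-3474, miR-3535 and miR-7649-3p were placed by their mature sequence, since the hairpin was not matched. Alternatives were DESeq2 1.42.0 size factors, total counts, totals without the 10 most abundant rows, other count and fold thresholds, a filter on mean CPM and leaving rows out. The position of 1 exonic member is not reported here.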

Additional observations from a re-analysis of the deposited data

Results flagged for a closer look

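For 3 members the AML library lay on opposite sides of the normal library in the 2 tissues, with calls in both. The AML to normal log2 ratio of spleen minus that of BM was 5.23 for miR-6538, -2.95 for miR-1306-3p and -2.75 for miR-5132-5p. All of these calls except that of miR-6538 in BM had at least 30 reads only in the library where the member was higher, so they tend to differ by that choice alone. With 1 library per group, the difference was not tested, and opposite calls were not counted over all rows of the table.

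The 250 rows with 4-digit names that stayed below 10 reads in every library were in no comparison, yet together held 1119 reads over the 4 libraries, a sum over many rows of few reads each. These were 242 reads in normal BM, 247 in AML BM, 434 in normal spleen and 196 in AML spleen, or 0.117%, 0.0911%, 0.0997% and 0.109% of the library. Rows detected numbered 82, 87, 171 and 84, and at the depth of the smallest library 78.6, 75.2, 110 and 84 would be expected. The 225 other rows below 10 reads gave 86.3, 91.3, 104 and 105 at that depth.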

How the results depend on the processing

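With a count minimum of 10 in place of 30, members called in AML BM against normal BM numbered 8 higher (main 4). In AML spleen against normal spleen they were 5 higher and 6 lower (3 and 3), in normal spleen against normal BM 18 higher (10) and in AML spleen against AML BM 12 lower (7). With a minimum of 100, AML BM gave 1 higher and 0 lower, AML spleen 1 higher, normal spleen against normal BM 5 higher and 0 lower, and AML spleen against AML BM 2 higher and 2 lower. A mean of at least 100 CPM left 1 lower in AML BM (main 3) and 3 lower in normal spleen against normal BM (main 5). At 3-fold, 1 was lower in AML spleen, normal spleen against normal BM gave 6 higher, and AML spleen against AML BM gave 2 higher and 3 lower. The shares of all rows called were not computed at these settings or under the other scalings.

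Leaving the 10 most abundant rows out of the scaling gave 7 higher in AML BM, and DESeq2 size factors gave 7 lower in AML spleen. These scalings moved the log2 ratios by 0.20 in AML BM and -0.24 in AML spleen. Leaving out members in snoRNAs and scaRNAs, an alternative added after seeing the data, left 6 higher in normal spleen against normal BM. The median of the members reversed in AML spleen against normal spleen on total counts, to 0.017 (main -0.23), and in AML spleen against AML BM without rows that share sequence or counts, to -0.16 (main 0.20). The causes of these changes were not tested.

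The read share of normal BM, AML BM, normal spleen and AML spleen became 2.96%, 5.16%, 5.33% and 4.53% with the 10 most abundant rows out of the total. It was 1.78%, 2.70%, 2.47% and 2.37% with all rows of the number range and 1.12%, 1.64%, 1.43% and 1.36% without miR-1198-5p. In the other 55 settings the counts of calls and of members detected stayed within 1.5 times, and the other medians kept their sign. Of 282 log2 ratios of named members under other scalings, 21 left their interval and 8 changed sign, 0 of these among called ratios. One was miR-1981-5p in normal spleen against normal BM, from -0.19 to 0.048 with DESeq2 size factors, and the others were ratios of miR-1843a-5p, both miR-1843b arms, miR-3474, miR-1839-5p and miR-1934-5p. No replicate could be left out, and depth limits calls of members below 30 reads. No paired analysis was possible because each group has 1 library.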
